A study of Drosophila melanogaster with 2 samples.

Results

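The telomere capping genes of Drosophila melanogaster examined here were cav, moi, ver, HipHop, tea and the gene of heterochromatin protein 1a, called HP1a below, 6 of the 13945 protein-coding genes annotated on the chromosome arms. They are a list of names grouped by what their proteins do, with no measured value in the rule, but the list was drawn up with earlier results of these data known. All 6 were found in the annotation. ChIP-seq, in which fragments bound by a protein are precipitated and sequenced, was used to map the transcription factor DREF in whole embryos aged 0 to 24 h. The embryos came from transgenic flies with an insertion that expresses a DREF-eGFP fusion, an anti-GFP antibody recovered it, and chromatin had been sonicated to 200 to 800 bp. The series held 1 group of 2 biological replicates, with no second genotype, age or treatment, and no record of sex. The promoter that drives the fusion protein is not stated in the labels, and the peak lists hold no expression values against which the stage could be checked. In whole embryos, binding in fewer cells and weaker binding in each cell cannot be told apart.

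Drosophila chromosomes end in arrays of retrotransposons rather than in the short repeats that telomerase adds in other animals, and the cap that protects these ends assembles without a need for a particular DNA sequence. The cap is the terminin complex, in which cav encodes HOAP, HipHop encodes the partner that HOAP needs for stability, ver encodes a protein with an oligonucleotide-binding fold, and moi and tea encode its partners in a subcomplex that binds single-stranded DNA. HP1a binds HOAP at chromosome ends and is also a component of pericentric heterochromatin; its gene is known as Su(var)2-5 and bears its current symbol beside HP1a in the plots. Loss of these proteins leads to fusion of chromosomes end to end. DREF binds a palindrome, the DNA replication-related element (DRE, TATCGATA), near the starts of many genes used in dividing cells.

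The sequences on which the description of binding turns are shown in dm6 coordinates from the Release 6 assembly, 5′ to 3′. The first is the whole interval between the moi start and the start on the opposite strand, at chr3R:18255488-18255529 on the plus strand, with the exact DRE in capitals.
moi: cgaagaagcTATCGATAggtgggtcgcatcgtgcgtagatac
The second is the whole interval between the start of HP1a and that of its divergent neighbour, at chr2L:8211123-8211346 on the minus strand, with both copies of ATCGAT, the inner part of the DRE, in capitals.
HP1a: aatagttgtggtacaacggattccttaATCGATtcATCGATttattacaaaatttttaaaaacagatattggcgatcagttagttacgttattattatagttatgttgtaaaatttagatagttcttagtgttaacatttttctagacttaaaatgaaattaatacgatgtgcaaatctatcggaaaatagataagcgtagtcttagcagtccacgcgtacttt
The cav gene had a pair of summits. The weaker lay at chr3R:24222244-24222270 on the plus strand, where capitals mark 2 copies of the DRE that each differ from it at 1 base.
cav, weaker summit: AATCGATAaccttacagagTTTCGATA
The stronger lay close to chr3R:24222007-24222036 on the plus strand, where capitals mark TATCG, which reads CGATA on the other strand.
cav, stronger summit: ctgttaatcggcTATCGgaaagaatttgca
Shown last are 30 bp under the summit at ver, at chr3L:12524233-12524262 on the plus strand. Beside them are 30 bp just upstream of the HipHop start, at chr3L:18821141-18821170 on the plus strand. These stretches held none of the motifs searched, but sequence within 250 bp of the starts of both genes held some.
ver: tgcgcggttctgcaaattaatgtgaccctg
HipHop: ttttggtatatttcagcaatccatatgtgg

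The question put to the capping genes was whether DREF was bound at their starts. A gene was called bound when a peak of the conservative list had its summit within 250 bp of any of its annotated starts. The conservative list holds 5355 peaks that the authors kept by their irreproducible discovery rate (IDR), which scores how alike peaks rank in a pair of peak sets. By this rule 4 of the 6 genes were bound, cav, moi, ver and HP1a, where the share over all protein-coding genes was 30.6%. HipHop and tea were not bound, but tea had a strong peak just beyond the distance allowed. With 6 genes in 1 condition no test was made, and these counts are a description.

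The moi gene (FBgn0261019, chr3R:18255530-18257677, plus strand) had the strongest peak of the set. Its signal, the authors' own value of peak strength, was 635 in replicate 1 and 1095 in replicate 2. In the conservative list it was 1722, rank 1034 of 5355. The peak spanned 18255367 to 18255641 on 3R, and its summit at 18255502 lay 28 bp upstream of the only annotated start, in sequence outside any gene. The exact DRE at 18255497 to 18255504 was centred 1.5 bp from the summit and 29.5 bp upstream of the start. The moi start is also the start of Tgs1, which encodes trimethylguanosine synthase and is annotated over the same span. On the opposite strand 43 bp away lies a start shared by Ada2a, an adaptor of histone acetyltransferase complexes, and Polr2D, a subunit of RNA polymerase II. That start was 15 bp from the summit, so 4 annotated genes shared 1 peak and 1 DRE.

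The cav gene (FBgn0026257, chr3R:24221103-24223528, plus strand) has 3 annotated starts, and DREF was bound near the third of them only. The peak spanned 24221902 to 24222357 and held 2 summits in the conservative list. The stronger, at 24222050 in a cav intron, had a signal of 378 in replicate 1 and 681 in replicate 2. Its value in the conservative list was 1057, and it lay 192 bp upstream of the third start. A start of twin, which encodes the CCR4 deadenylase on the opposite strand, was nearer to it, at 85 bp. That start is not the canonical start of twin. The weaker, at 24222252 and 10 bp downstream of the third cav start, had 341 in the conservative list and 167 in replicate 1. Replicate 2 listed no separate summit there. No exact DRE lay within 250 bp of any cav start. The weaker summit was 4.5 bp from a near copy of the DRE with the change T1A and 14.5 bp from one with A2T, where positions count from the 5′ end of the DRE on the plus strand. The stronger summit had CGATA 29 bp away, and no near copy of the DRE within 100 bp. From the start of the canonical cav transcript, at 24221531, the stronger summit lay 519 bp downstream.

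The HP1a gene, Su(var)2-5 (FBgn0003607, chr2L:8209626-8211122, minus strand) had an intermediate peak. Its signal was 220 in replicate 1, 389 in replicate 2 and 606 in the conservative list, rank 2143. The peak spanned 8211216 to 8211432, and its summit at 8211319 lay 197 bp upstream of the start, which made it the bound gene closest to the limit of 250 bp. The start of Ssb-c31a, a coactivator that binds single-stranded DNA, is on the opposite strand and was 28 bp from the summit. The 2 copies of ATCGAT were centred 2.5 and 10.5 bp from the summit. The nearest copy of the DRE with 1 change, T3G, was 165.5 bp from it, on the far side of the Ssb-c31a start.

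The ver gene (FBgn0262524, chr3L:12523987-12525150, plus strand) had the weakest peak, and the replicates differed on it. The peak spanned 12524089 to 12524404 with its summit at 12524247, in a ver intron between its starts. The summit was 260 bp downstream of the canonical start and 180 bp upstream of the other start. Its signal was 59.4 in replicate 1, which listed it past the threshold with a q-value of 0.0372. Replicate 2 had a signal of 40.1 there, listed it among the ranked peaks with a score of 44, and left it out of its thresholded list, where the lowest score was 830. The conservative list gave a signal of 92.2, rank 4042, and a q-value of 0.157, against 0.000168 for the peaks at cav, moi, tea and HP1a. Gcn5, which encodes a histone acetyltransferase, starts on the opposite strand 27 bp from the canonical ver start and 233 bp from the summit. None of the motifs searched lay within 100 bp of the summit. An ATCGAT was found 125.5 bp upstream of the canonical start, at 385.5 bp from the summit.

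The tea gene (FBgn0285892, chr2R:9891955-9898513, plus strand) had a signal of 587 in replicate 1, 868 in replicate 2 and 1450 in the conservative list, rank 1240. This was the second strongest peak near a capping gene, above those of cav and HP1a. Its summit lay 292 bp upstream of the tea start, the nearest value outside the limit of 250 bp, and 26 bp from the start of CG1513 on the opposite strand, within the CG1513 5′ UTR. The tea start had an exact DRE centred 27.5 bp upstream, close to the 29.5 bp seen at moi. No peak covered it. It lay 101 bp beyond the end of the conservative peak and 264.5 bp from its summit, and in none of the 4 ranked lists, which hold 118744 to 127495 peaks each, did an interval overlap it. Of 1142 exact DREs within 100 bp of a protein-coding start, 82.0% had a conservative summit within 100 bp and 88.1% had one within 250 bp. At the tea summit itself the nearest copy of the DRE had the change A8G, 25.5 bp away, and copies of ATCGAT lay 9.5 and 25.5 bp away.

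HipHop (FBgn0036815, chr3L:18821171-18822353, plus strand) had no peak within 1000 bp of its starts in any list. Among all genes, 10.5% had no summit within 1000 bp in any of the 4 ranked lists, and among the 9673 genes not bound 15.2% did. The nearest summit upstream was 16222 bp from the canonical HipHop start in replicate 1 and 17153 bp in replicate 2. Downstream, the distance was 3136 bp in replicate 1 and 1403 bp in replicate 2. The summits on either side were thus 19358 bp apart in replicate 1 and 18556 bp apart in replicate 2, against medians of 1083 and 1156 bp for the intervals that hold the canonical starts of all genes. An interval at least as long held 8.58% of genes in replicate 1 and 10.2% in replicate 2. The divergent neighbour CG14073, which starts 496 bp away, was not bound either. The downstream summit in replicate 2 was a peak at the start of Cat, the catalase gene, with a signal of 822. Its summit was 30 bp from the Cat start and 221 bp past the end of HipHop. Replicate 1 and the lists made from both replicates held no peak there. Of the 3990 thresholded peaks of replicate 2, 68 (1.70%) overlapped nothing in the ranked lists made from both replicates. The median signal of these 68 was 130, and the Cat peak was among the 11 of them at or above the median of the whole replicate 2 list, 455.

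**Figure D1:**
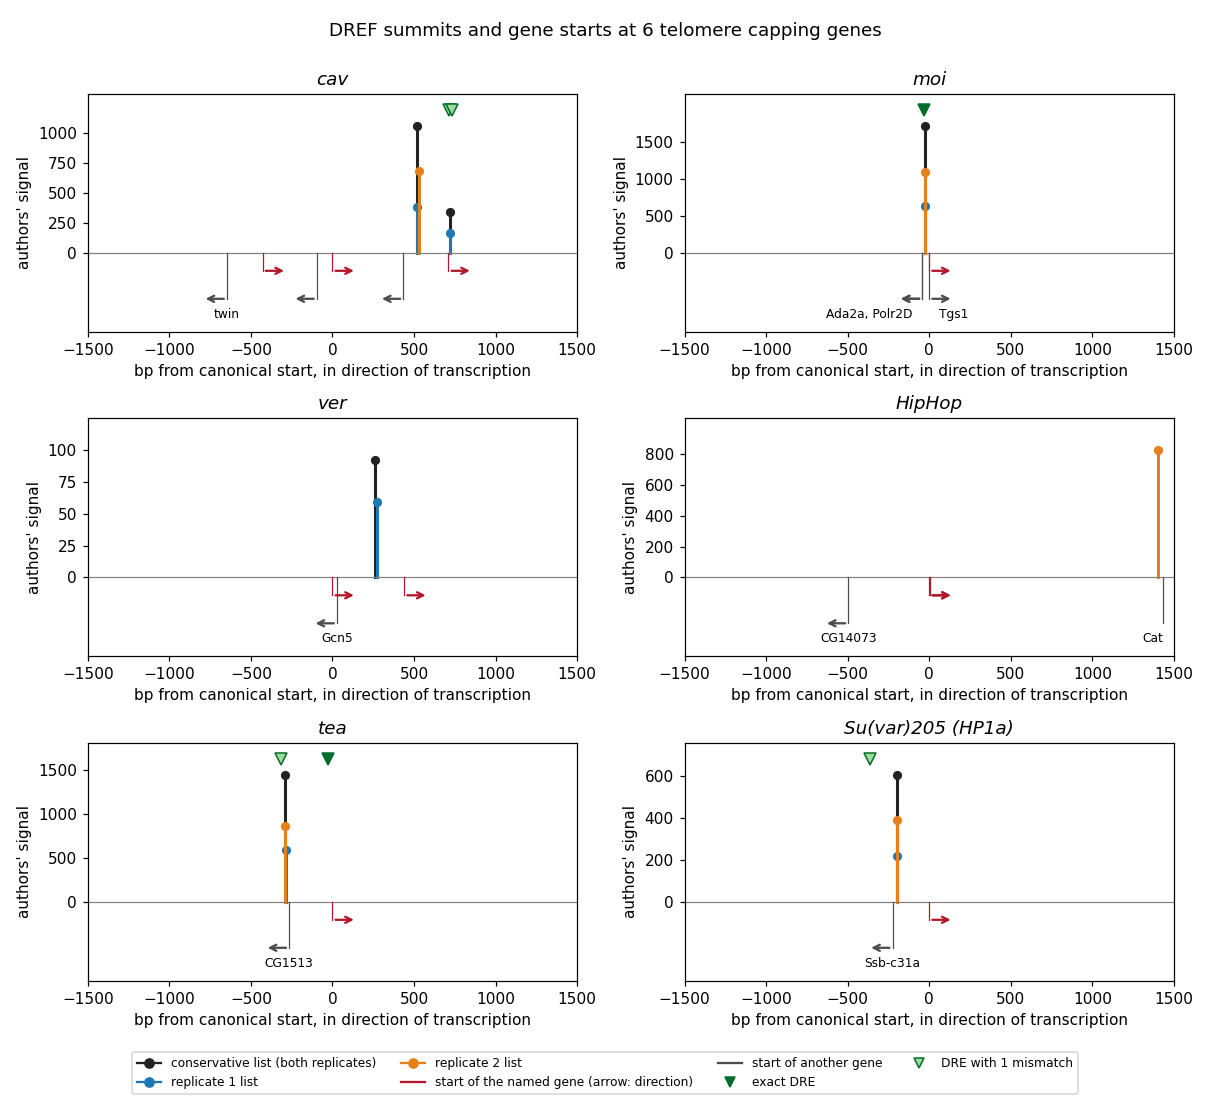
DREF summits at the 6 telomere capping genes, 1 panel each, with distance from the canonical start in bp on the horizontal axis and the authors' signal on the vertical axis, whose scale differs between panels. Stems are summits in the conservative list (black) and the thresholded lists of replicate 1 (blue) and replicate 2 (orange), arrows are gene starts, and triangles are exact (dark) or near (light) DREs: moi has a summit on its DRE, tea has its exact DRE apart from the summit at CG1513, and HipHop has a summit in replicate 2 alone, at Cat.

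The bound capping genes differed in peak strength, and none reached the upper quartile of all bound genes. Over all 4272 bound genes the median signal of the strongest summit was 908, with quartiles of 228 and 1935. The moi peak stood at percentile 71.6 of that distribution, cav at 54.2 and ver at 5.43, and HP1a, with 606, was between the lower quartile and the median. Within its own thresholded list, replicate 1 placed moi at percentile 71.4, tea at 69.0, cav at 55.2, HP1a at 42.1 and ver at 10.7. Replicate 2 placed moi at 74.7, tea at 67.9, cav at 60.3 and HP1a at 46.7. The order of moi, tea, cav and HP1a was therefore the same in both replicates and in the conservative list. The ver peak was the weakest in replicate 1 and in the conservative list. It was not in the thresholded list of replicate 2, and its value of 40.1 in the ranked list of replicate 2 was below those of the other genes.

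**Figure D2:**
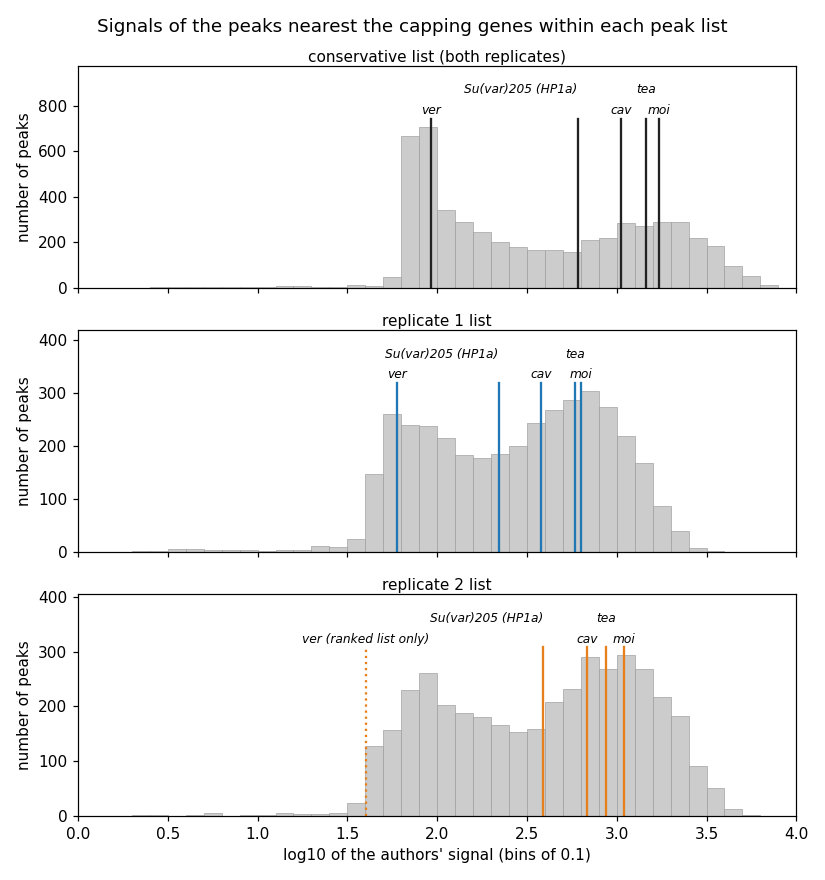
Number of peaks by the log10 of the authors' signal in the conservative list and in the thresholded list of each replicate, with vertical lines at the strongest peak within 1000 bp of each capping gene. In each panel the order from weak to strong is ver, HP1a, cav, tea, moi. The dotted line marks ver in replicate 2, which is not in the thresholded list, and its value of 40.1 comes from the ranked list.

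The summits of each replicate lay close to those of the conservative list, which combines both. For the strongest peak of each gene, the summit of either replicate was 0 to 15 bp from that of the conservative list, and the largest shift was at ver. The replicates' own summits could be further apart, since they lay on opposite sides of the conservative summit at ver, cav and moi. They were at 12524257 in replicate 1 and 12524232 in replicate 2 at ver, at 24222048 and 24222061 at cav, and at 18255505 and 18255501 at moi. The signal was higher in replicate 2 than in replicate 1 at 4 of the 5 genes. The ratio of replicate 2 to replicate 1 was 1.80 at cav, 1.77 at HP1a, 1.73 at moi and 1.48 at tea. For the 3711 conservative peaks with a q-value of 0.05 or less that were found in both replicates the median ratio was 1.58, with a 5th percentile of 0.877 and a 95th of 2.06, and these 4 genes lay between them. At ver the ratio was 0.674, the one gene where replicate 1 was higher. Among the 1525 peaks with a q-value above 0.05, as at ver, the median was 0.966 and the 5th percentile was 0.662. No source used here says that the signal was scaled for sequencing depth, so the general excess of replicate 2 is not read as stronger binding.

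The strongest summits at the capping genes were shared with neighbouring genes. At all 4 bound genes the strongest summit also lay within 250 bp of a start of another protein-coding gene, as it did for 40.3% of all bound genes. At 3 of them, moi, cav and HP1a, that other start was nearer to the summit than any start of the capping gene, against 18.7% of bound genes. The peak near tea followed the same arrangement with CG1513. Every capping gene had a protein-coding start on the opposite strand within 500 bp of its own, from 27 bp at ver to 496 bp at HipHop. Of all protein-coding genes 27.8% had such a neighbour, and of bound genes 52.2%. Position therefore does not assign these strongest summits to the capping gene or to its neighbour. The weaker cav summit differed, since it lay 10 bp from a cav start and had no start of another protein-coding gene within 250 bp. Other genes overlap the 3′ ends of 3 capping genes: Spps, which encodes a relative of the transcription factor Sp1, at cav, eIF2beta, a translation initiation factor, at ver, and CG8419 at HP1a. Of these Spps alone was bound, at its own start 4692 bp from the nearest cav start.

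The count of bound capping genes depended on the distance allowed and on the starts used. With a summit required within 100 bp, cav through its weaker summit and moi were bound, 2 of 6, against 25.6% of all genes. Replicate 2 listed no separate summit at the weaker cav summit. With 500 bp tea was added, giving 5 of 6 against 34.5%, and with 1000 bp the count was still 5 against 37.2%. When any base of the peak interval, rather than its summit, had to lie within 250 bp of a start, 5 genes including tea qualified, against 33.3% of all genes. With the canonical start alone, moi and HP1a were bound, against 27.9% of all genes. Both cav and ver were bound only through a start other than the canonical one, which held for 8.92% of all bound genes.

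Other peak lists mainly affected ver. With peaks of a q-value of 0.05 or less, cav, moi and HP1a were bound, against 28.0% of all genes, and with peaks at or above the median signal of 289 the same 3 genes were bound, against 21.6%. The thresholded list of both replicates gave the same 4 genes as the conservative list, against 31.4%. The thresholded list of replicate 1 alone also gave these 4, against 26.9% of all genes, and that of replicate 2 alone gave the 3 without ver, against 28.7%. HipHop was bound under none of these 11 rules, and moi was bound under all of them.

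**Figure D3:**
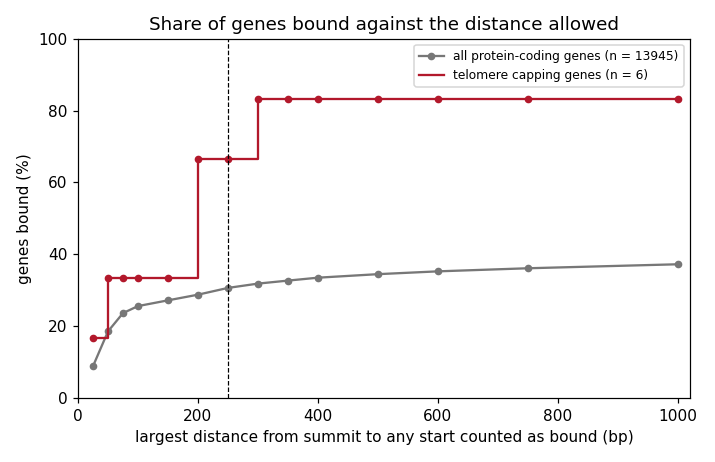
Percent of genes bound (vertical axis) against the largest distance in bp allowed between a conservative summit and any start (horizontal axis), for the 6 capping genes (red) and all 13945 protein-coding genes (grey); the dashed line marks 250 bp. The capping genes step from 2 bound at 150 bp to 4 at 200 bp and 5 at 300 bp, while the share of all genes moves from 27.2% to 31.8% over the same distances.

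The exact DRE was about as frequent at the capping genes as at other bound starts. Within 100 bp of the strongest summit, TATCGATA was found at moi alone, 1 of the 4 bound genes. Over all 3595 conservative summits within 250 bp of a protein-coding start, 26.4% had one within 100 bp, so the count at the capping genes is near the background. The inner palindrome ATCGAT, which is contained in the DRE, was found within 100 bp of a summit of moi, HP1a and, at its weaker summit, cav, against 52.7% of summits at starts. CGATA, a site known for the insulator protein BEAF-32 that overlaps the end of the DRE on either strand, was found there at the same 3 genes, against 74.8%. Allowing 1 mismatch to the DRE added cav to moi, through its weaker summit only, against 56.5% of summits at starts. With its 2 summits cav had 2 windows in which a motif could be found, while the background counts single summits. The weaker cav summit had no separate summit in replicate 2. CAGCTG, an E-box, lay within 100 bp of no capping gene summit, against 20.4%. TATAAA did so at moi and cav, against 24.9%, and the scrambled control ATTCGTAA at none, against 0.751%. All motifs were searched on both strands. Measured from any annotated start instead, an exact DRE lay within 250 bp at moi and tea, against 9.42% of canonical starts of all protein-coding genes. The background used canonical starts only, but moi and tea have 1 annotated start each. Within 250 bp of any start, ver held 1 ATCGAT, 2 CGATA and 1 CAGCTG, and HipHop held 1 CGATA and 1 TATAAA. Of the canonical starts of all genes, 59.6% had CGATA, 54.4% TATAAA, 27.8% ATCGAT and 26.2% CAGCTG.

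Genes related to the capping genes by role were examined as 4 lists. The share of all protein-coding genes bound by the same rule, 30.6%, is the background for each list, and no list was tested against it. Of 9 other genes that protect chromosome ends, 6 were bound, against that 30.6%, with signals from 288 to 1711 and a median of 1251, against a median of 831 for the 4 bound capping genes. In the Mre11 complex, which resects and tethers DNA ends, the summit at mre11 was 6 bp from the start with a signal of 574 in replicate 1 and 942 in replicate 2. The summit at rad50 was likewise 6 bp from its start, with 571 and 787. The third subunit, nbs, was not bound in the conservative list; replicate 2 listed a peak of 41.6 and the thresholded list of both replicates one of 74.0. In the checkpoint kinase branch, mei-41, the fly ATR, was bound with 370 in replicate 1 and 647 in replicate 2 and had an exact DRE. Its partner mus304, the fly ATRIP, had 694 and 1030, with its summit 222 bp from its start and 18 bp from that of Polr3D, a subunit of RNA polymerase III. The fly ATM gene, tefu, was not bound, nor was peo, a ubiquitin-conjugating enzyme variant. The ubiquitin-conjugating enzyme gene eff had 433 and 725 and an exact DRE, and the zinc-finger protein gene woc had 134 and 155. The summit at mei-41 was also 216 bp from a start of TH1, and that at eff was 238 bp from a start of jvl.

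The germline copy of HipHop differed from HipHop itself. The ms(3)K81 gene, which arose by duplication of HipHop and protects the paternal chromosomes in sperm, was bound with 442 in replicate 1, 631 in replicate 2 and 1079 in the conservative list. Its summit lay 95 bp upstream of its start with an exact DRE within 100 bp. The start of Rb97D, which encodes an RNA-binding protein, was nearer to that summit, at 15 bp.

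Of the 4 other genes of the HP1 family, 2 were bound, against 30.6% of all protein-coding genes. HP1b had 264 in replicate 1 and 390 in replicate 2, close to the 220 and 389 of HP1a. HP1c had 126 in the conservative list and 61.1 in replicate 1, and no peak past the threshold in replicate 2, as for ver. The HP1c summit was 19 bp from the HP1c start and 20 bp from that of vret. The HP1b summit was 55 bp from the HP1b start and 142 bp from that of CG7246. The germline genes HP1e and rhi were not bound. None of HP1a, HP1b and HP1c had an exact DRE within 100 bp of its summit, where 26.4% of conservative summits at protein-coding starts had one.

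Of 6 genes for partners of HP1a in heterochromatin, 4 were bound, against 30.6% of all protein-coding genes. Su(var)3-9, the histone H3 lysine 9 methyltransferase whose mark HP1a binds, had one of the strongest peaks of the whole list, with 2794 in replicate 1, 4575 in replicate 2, 7337 in the conservative list and 3 exact DREs. It shares its start with eIF2gamma, a translation initiation factor gene. The HP1-binding protein gene HP4 had 1003 in the conservative list and an exact DRE. Its summit was 235 bp from the HP4 start, near the limit of 250 bp, and 17 bp from the start of CG8209. The methyltransferase gene egg had 743, and Su(var)2-HP2, whose protein binds HP1a, had 290. Su(var)3-7 was not bound. G9a, a further methyltransferase gene, was not bound by the conservative list. However, a ranked list made from both replicates held a peak of signal 2861 at the G9a start. This ranked list was taken as the source of the conservative list, because its peaks with a score of 830 or more include every conservative peak. Of its 5590 peaks with such a score, 235 are not in the conservative list.

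**Figure D4:**
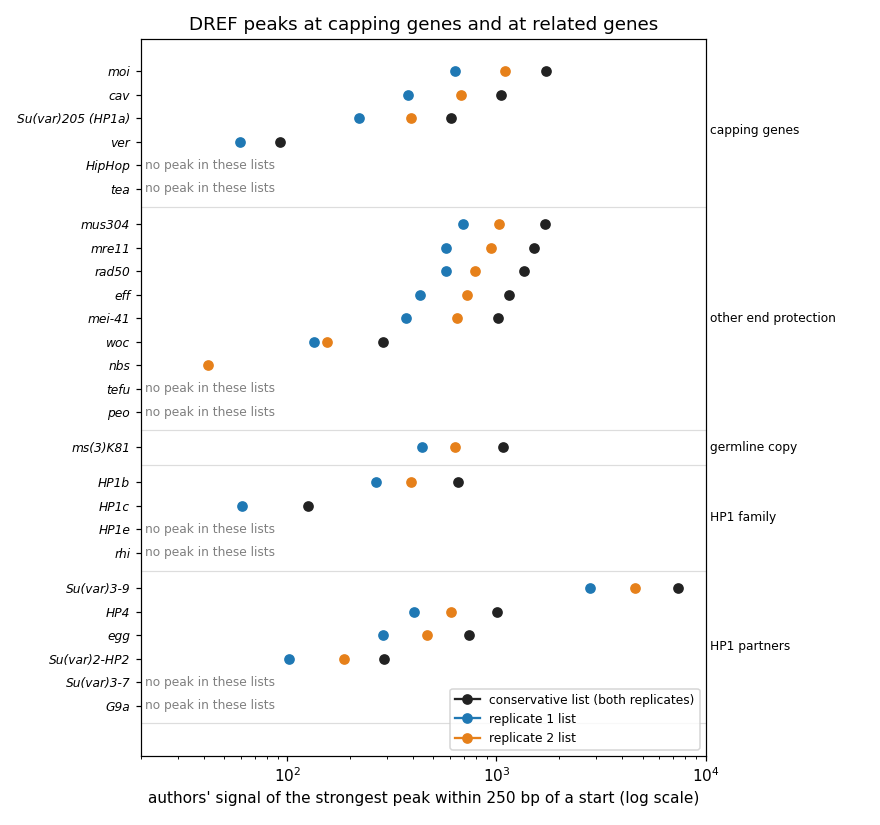
Authors' signal (log scale) of the strongest peak within 250 bp of a start for each capping gene and each gene of the related lists, in the conservative list (black) and in the thresholded lists of replicate 1 (blue) and replicate 2 (orange). Bound capping genes run from 92.2 at ver, below every bound gene of the related lists, to 1722 at moi, beside mus304 at 1711 and below Su(var)3-9 at 7337, and genes with no point, such as HipHop and tea, have no peak within 250 bp in these lists.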

How the data were processed

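ChIP-seq of DREF-eGFP was analysed from 8 deposited peak lists of 2 biological replicates, in dm6 coordinates per the labels. Each replicate has a ranked and a thresholded list, and the other lists combine both replicates. Each peak carries the authors' deposited score, read as a scaled IDR and at least 830 in thresholded lists, the authors' deposited signal, and a −log10 q-value deposited by the authors, with a ceiling of 3.78. Per the notes deposited with the files, thresholded lists also drew on 1 further file whose content is not described. Which aligner, peak caller and scaling for depth were used is not given in the sources used here. No value has a counting interval, since read depth is unknown. A control experiment named in the labels was not used here.

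Starts came from Ensembl release 115 and sequence from the Release 6 assembly. Peak ends lay within its arm lengths. For replicate values, the peak of each replicate's own ranked list that overlapped and had the closest summit was taken. The scripts used Python 3.11.15, pandas 2.3.3 and numpy 2.4.6, and the start assignment and motif search were tested on simulated data. No test was made, since the series has 1 group. Named genes were the members, genes sharing or neighbouring their starts and 20 genes in 4 lists; Cat was added after its peak was seen. The members and lists were chosen with earlier results of these data known. Alternatives covered the peak list, distance, starts, stricter thresholds, motif window and mismatches.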

Additional observations from a re-analysis of the deposited data

How the results depend on the processing

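The count of bound capping genes, 4 with the conservative list and 250 bp, was 2 with a summit within 100 bp and 2 with the canonical start only. Under the other planned settings it lay between 3 and 5, and the thresholded list of 1 replicate alone gave 3 to 4. The thresholded list of replicate 1 held the ver peak and that of replicate 2 did not. The count of bound genes with an exact DRE near a summit, 1, was 2 with 1 mismatch allowed and 1 under the other windows, and it does not include tea, which is not bound at 250 bp. The signal percentile of each bound gene differed between lists. At cav it was 69.7 in the conservative list and 55.2 in replicate 1, and at ver 24.5 and 10.7. These lists differ in length, so the percentiles are not on the same scale. The stronger cav summit ranked 1626 of 5355 in the conservative list and 1709 of 3812 in the thresholded list of replicate 1. The ver peak ranked 4042 and 3404 in them. Summits in the replicates' thresholded lists lay at most 11 bp from the conservative ones, with the largest shift at cav. The ranked peak of replicate 2 at ver, which is not in its thresholded list, lay 15 bp away. No direction reversed. No paired analysis was possible because the series has 1 group. Limits are the 2 replicates, the unknown read depth, the unstated scaling of the signal, and shared starts, at which position does not assign the strongest summit to 1 gene.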
